A study of Homo sapiens with 6 samples.

Results

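Aminoacyl-tRNA synthetase mRNAs were followed from the nuclear input into immunoprecipitates of ORC1, a protein of the complex that recognises replication origins. The 36 members were taken by gene symbol, a rule that itself uses no measured value, out of 23013 genes in the deposited table. They comprised 20 cytosolic enzymes and 16 mitochondrial enzymes, whose symbols end in 2, and all 36 were found. RIP-seq, in which the RNA that accompanies a protein through an antibody pull-down is sequenced, was done natively (without crosslinking) on nuclear lysate of untreated, asynchronous HCT116 cells, an established human colorectal carcinoma line. There were 3 input libraries of nuclear RNA and 3 libraries from the ORC1 antibody (ORC1 IP), each with a RIP replicate number of 1 to 3. All 6 libraries came from this single line with no genetic change or drug, and no library from a control antibody was analysed here. The question was which of these mRNAs were enriched or depleted in ORC1 IP relative to nuclear input.

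Aminoacyl-tRNA synthetases attach each amino acid to its matching tRNA and so set the genetic code at every round of translation. They fall into structural classes I and II, which bind tRNA and amino acid through unrelated catalytic folds. Most amino acids are served by separate enzymes for the cytosol and for mitochondria, all encoded in the nucleus, while GARS (glycine) and KARS (lysine) supply both compartments. Several cytosolic enzymes, among them the glutamyl-prolyl fusion enzyme EPRS, sit together with scaffold proteins in the multisynthetase complex.

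Tandem GAA repeats, a sequence the study examined in ORC1-bound RNA, were counted in the member transcripts. At least 3 GAA units in a row were found in 5 of 20 cytosolic transcripts, CARS, EPRS, IARS, KARS and TARS, and in 0 of 16 mitochondrial ones. Such a run was present in 13.0% of the 16062 tested genes with a matched transcript, and in 20.1% of those averaging 1000 normalised counts or more, so the cytosolic share of 25.0% was near that of well-expressed genes. The difference between the compartments was not tested. The stretches of EPRS, IARS, KARS and TARS are shown because these members are among those with the longest such runs. Each is 30 bases of the sense strand of the Ensembl canonical transcript, 5′ to 3′, with the GAA run in capitals, at its GENCODE v44 position on GRCh38. The EPRS, IARS and KARS windows lay within coding sequence, and the TARS window was not fully coding.
EPRS, chr1:219987273-219987302, minus strand, exon 20: gacaaagataaGAAGAAGAAagaaaaagaa
IARS, chr9:92274455-92274484, minus strand, exon 10: actatgtgaagGAAGAAGAAggcacagggg
KARS, chr16:75636067-75636096, minus strand, exon 5: attataaatcaGAAGAAGAAtttattcata
TARS, chr5:33467683-33467712, plus strand, exon 19: gcaaacaggcaGAAGAAGAAttttaatgaa

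Depth on genes was 13703033 to 17248924 reads in the inputs and 25134156 to 36008733 reads in the ORC1 IPs. The epithelial markers EPCAM, KRT8, KRT18, KRT19, CDH1 and CDX2 were read in every library, from 192 normalised counts (CDX2) to 82363 (KRT8), whereas VIL1 stayed at 0 to 6.30. Of 9 markers of other cell types, 2 had a row. VWF reached at most 37.3, and the collagen gene COL1A1 read 161 to 298 in the inputs and 432 to 787 in the ORC1 IPs. ORC1 IP 2 stood apart from the other ORC1 IPs in its makeup. Transcripts of the mitochondrial genome took 5.995% of its reads, against 0.617% and 0.257% in ORC1 IPs 1 and 3 and 1.49% to 3.28% in the inputs. The nuclear RNA MALAT1 read 116695 in ORC1 IP 2 and 10644 to 35633 in the other 5 libraries. Results that rest on ORC1 IP 2 are therefore given with and without it.

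In the nuclear inputs, cytosolic enzymes were the more abundant members. Per kilobase of transcript, the median input level was 1749 normalised counts for cytosolic members, from 325 (FARSB) to 3055 (KARS), and 267 for mitochondrial members, from 53.1 (WARS2) to 1449 (IARS2). Among the upper 18 of the 36 levels, 17 were cytosolic and the exception was IARS2, the mitochondrial isoleucyl enzyme. Neighbours in this order were mostly not separated, since the ranges over 3 inputs overlapped in 33 of 35 neighbouring pairs.

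No synthetase mRNA passed the test between the 3 ORC1 IPs and the 3 inputs. With limma on log2(normalised count + 1) and an adjusted p under 0.05, 0 of 36 members were higher, where 2.28% of the 16513 genes tested were, and 0 were lower, where 1.42% were. All 36 members were in this test. At an unadjusted p under 0.05, 0 members were higher, beside 12.2% of all genes, and 4 were lower, beside 9.45%. The 4 were the mitochondrial enzymes YARS2, MARS2, NARS2 and FARS2. The study compared ORC1 IP with input by DESeq2, and called genes at an unadjusted p under 0.05 and a log2 fold change above 1. In the limma fit used here, that was met by 0 members (10.9% of all genes), and its mirror below -1 by 0 members (7.25%). In DESeq2 on recovered reads, 3 members (LARS, NARS and EPRS) met it and 1 (MARS2) met the mirror. No share of all genes is given for that setting. On recovered reads, edgeR called 0 members (2.57% of all genes higher, 1.31% lower), and DESeq2 called EPRS higher and 0 members lower (7.67% and 4.35% of all genes). The median log2 fold change was 0.12 for cytosolic members, with 11 of 20 positive, and -0.19 for mitochondrial members, with 5 of 16 positive, beside 0.01 for all genes tested, with 50.7% positive. When libraries were scaled by total count, these medians were -0.10 and -0.40 beside -0.19, so the sign of the cytosolic median depended on the scaling.

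**Figure D1:**
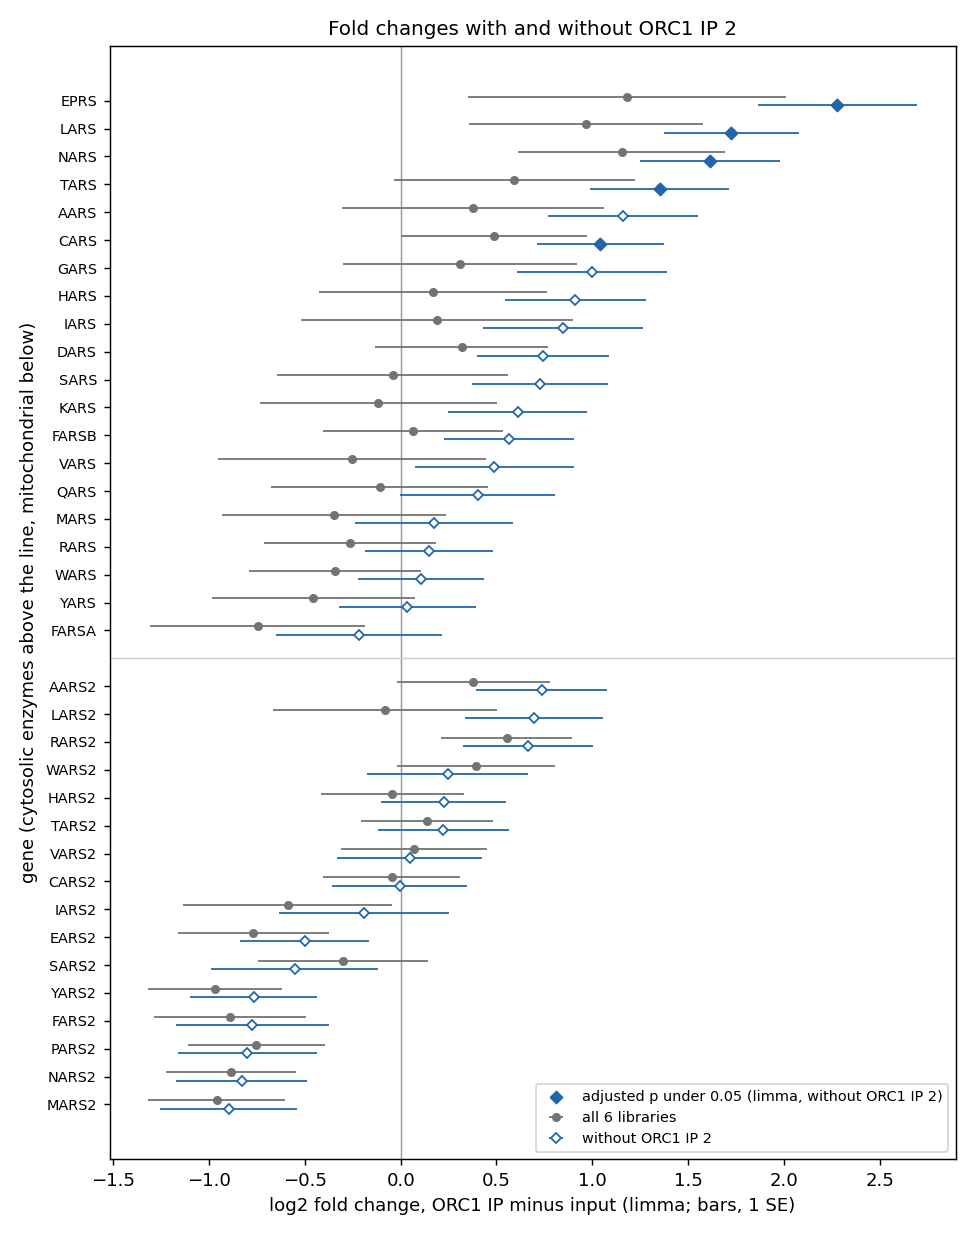
Log2 fold change of ORC1 IP over input for the 36 synthetase mRNAs, with bars of 1 SE from limma (3 libraries against 3) and diamonds for the fit without ORC1 IP 2, filled where the adjusted p is under 0.05. Cytosolic members run from -0.75 (FARSA) to 1.18 (EPRS) and mitochondrial members from -0.97 (YARS2) to 0.55 (RARS2). Leaving out ORC1 IP 2 moves each cytosolic member upwards, which must follow because it is the lowest ORC1 IP for each of them.

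With the deposited scaling, the cytosolic mRNAs went opposite ways in the individual ORC1 IPs. ORC1 IP 1 lay above all 3 inputs for 13 of 20 cytosolic members and below all of them for 0, and ORC1 IP 3 lay above for 17 and below for 0. ORC1 IP 2 lay above for 0 and below for 19, the exception being NARS. The size factors were 0.869, 1.72 and 1.34 for ORC1 IPs 1, 2 and 3. As a share of reads, cytosolic members together took 0.518% in ORC1 IP 1, within the 0.483% to 0.535% of the inputs. They took 0.311% in ORC1 IP 2 and 0.844% in ORC1 IP 3. The summed rise in ORC1 IP 1 thus depended on the scaling. Over all genes tested, the share above all inputs was 35.6%, 34.0% and 37.0% in ORC1 IPs 1, 2 and 3, and the share below was 35.6%, 38.2% and 32.0%. Well-expressed genes leaned the same way: of the 4592 genes averaging 1000 normalised counts or more, 49.3%, 20.6% and 50.3% were above all inputs and 27.8%, 57.2% and 25.6% below. ORC1 IP 2 was the lowest of the 3 ORC1 IPs for 20 of 20 cytosolic and 10 of 16 mitochondrial members, beside 40.3% of all genes. It held the lowest value of all 6 libraries for 19 of 20 cytosolic members, where 25.7% of all genes and 46.5% of well-expressed genes had it there. In 12 of 20, ORC1 IPs 1 and 3 were above every input and ORC1 IP 2 below every input, a pattern of 7.41% of all genes and 16.8% of well-expressed genes. The libraries are bulk pull-downs and inputs, so these comparisons measure neither transcript per nucleus nor the number of nuclei holding a transcript. The part of mitochondrial RNA and MALAT1 in these values was not tested.

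**Figure D2:**
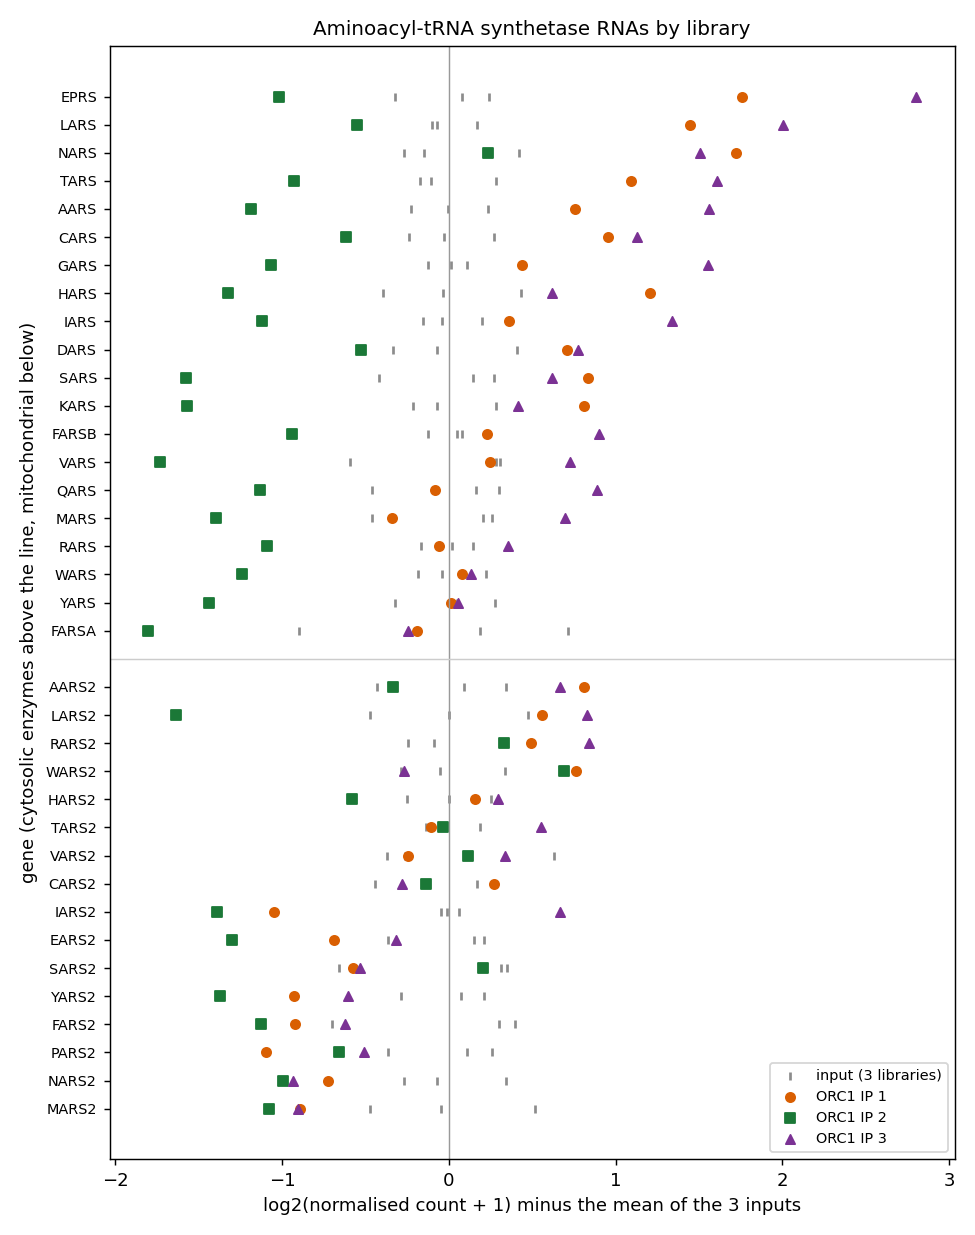
Log2 ratio of each library to the mean of the 3 inputs for every synthetase mRNA, with cytosolic members grouped apart from mitochondrial members. ORC1 IP 2 is the lowest of the ORC1 IPs for 20 of 20 cytosolic and 10 of 16 mitochondrial members.

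EPRS, the fusion enzyme for glutamate and proline, had the highest fold change and the widest spread. Its normalised counts were 6747, 6016 and 4563 in the inputs and 19263, 2818 and 39801 in the ORC1 IPs, each in the order of replicates 1 to 3 as throughout. Its 2 high ORC1 IPs were far above the inputs and the remaining one below them, so that the groups overlapped. The log2 fold change was 1.18 ± 0.83 (SE, 3 libraries against 3 as for all fold changes with no library left out, limma adjusted p = 0.440). NARS, the asparaginyl enzyme, read 5374, 3633 and 3331 in the inputs and 13248, 4732 and 11424 in the ORC1 IPs. It was the only cytosolic member for which ORC1 IP 2 was not below every input. Its log2 fold change was 1.15 ± 0.54 (SE, limma adjusted p = 0.239). LARS, the leucyl enzyme and also an amino acid sensor, read 3058, 3693 and 3128 in the inputs and 8928, 2237 and 13179 in the ORC1 IPs. ORC1 IPs 1 and 3 were again above and ORC1 IP 2 below every input, and the difference was 0.97 ± 0.61 on the log2 scale (SE, limma adjusted p = 0.388).

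The lowest cytosolic fold changes belonged to FARSA, YARS and MARS. FARSA, the catalytic subunit of the phenylalanyl enzyme, read 2391, 7317 and 5083 in the inputs and 3912, 1277 and 3767 in the ORC1 IPs. Its inputs spread as widely as its ORC1 IPs, 3.06-fold in either group, and the log2 fold change was -0.75 ± 0.56 (SE, limma adjusted p = 0.475). FARSB, its partner subunit, read 2008 to 2317 in the inputs and 2569, 1143 and 4098 in the ORC1 IPs, with a log2 fold change of 0.06. The tyrosyl enzyme YARS read 4991, 6446 and 7547 in the inputs and 6295, 2299 and 6486 in the ORC1 IPs (log2 fold change -0.46 ± 0.53, SE). The methionyl enzyme MARS read 4959, 8175 and 7856 in the inputs and 5381, 2591 and 11067 in the ORC1 IPs (log2 fold change -0.35 ± 0.59, SE). In both genes the lowest of 6 values was ORC1 IP 2. The other ORC1 IPs lay within the input range, apart from ORC1 IP 3 of MARS, which was above it. The 9 cytosolic members not named with values here or below, DARS, GARS, IARS, KARS, QARS, RARS, SARS, VARS and WARS, had log2 fold changes from -0.34 (WARS) to 0.32 (DARS). HARS, the histidyl enzyme, had one of the 3 widest ranges among replicates, with 2274, 4035 and 2916 in the inputs and 6910, 1196 and 4589 in the ORC1 IPs.

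Without ORC1 IP 2, which leaves ORC1 IPs 1 and 3 against the 3 inputs, 5 synthetase mRNAs passed the test as higher, all cytosolic. EPRS rose 4.86-fold (log2 2.28 ± 0.42, SE, limma adjusted p = 0.00249), LARS 3.31-fold (adjusted p = 0.00494) and NARS 3.06-fold (adjusted p = 0.00839). TARS, the threonyl enzyme, rose 2.55-fold (adjusted p = 0.0200), from 5432, 4134 and 3949 in the inputs to 9507 and 13622 in ORC1 IPs 1 and 3, with 2346 in the ORC1 IP left out. CARS, the cysteinyl enzyme, rose 2.06-fold (adjusted p = 0.0427), from 1915, 1653 and 2357 to 3785 and 4279, with 1273 in the ORC1 IP left out. In the same fit 11.9% of all genes were higher and 6.38% lower, and among well-expressed genes 1074 of 4592 were higher. The 5 of 36 members, or 5 of 20 cytosolic ones, thus lay close to those backgrounds. The next member, AARS, read 6050, 7070 and 8335 in the inputs and 11973, 3120 and 20952 in the ORC1 IPs, and reached an adjusted p of 0.0538 without ORC1 IP 2. At the threshold of the study, applied to this limma fit, 6 members were higher without ORC1 IP 2 (15.7% of all genes) and 0 lower (9.86%). Leaving out any of the other 5 libraries gave 0 members an adjusted p under 0.05.

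The 8 cytosolic members of the multisynthetase complex, EPRS, IARS, LARS, MARS, QARS, RARS, KARS and DARS, were not set apart from other cytosolic members by their medians. Their median log2 fold change was 0.04, against 0.12 for the 12 cytosolic members outside the complex. Without ORC1 IP 2 the medians were 0.68, with 8 of 8 positive, and 0.82, with 11 of 12 positive. ORC1 IP 3 was above all inputs for 8 of 8 members of the complex and ORC1 IP 2 below all inputs for 8 of 8. For the cytosolic members outside it, this held for 9 of 12 and 11 of 12, and for well-expressed genes for 50.3% and 57.2%. By structural class, 9 of 10 class II cytosolic members were above all inputs in ORC1 IP 1, all but FARSA, and 4 of 10 class I members were, CARS, EPRS, IARS and LARS. EPRS was counted as class I by its glutamyl part, although its prolyl part is class II. In ORC1 IP 3 these counts were 9 of 10 and 8 of 10. The difference between classes was not tested, since the members are not replicates of a condition.

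Mitochondrial synthetase mRNAs did not share one direction. In ORC1 IPs 1, 2 and 3, 4, 1 and 6 of 16 were above all inputs and 7, 9 and 4 below. MARS2, NARS2, PARS2 and YARS2 had all 3 ORC1 IPs below all 3 inputs, a pattern of 13.5% of all genes, and 0 members had all ORC1 IPs above all inputs, beside 12.7%. YARS2, the tyrosyl enzyme, read 784, 1106 and 1004 in the inputs and 501, 369 and 628 in the ORC1 IPs, for a difference of -0.97 ± 0.35 on the log2 scale (SE, limma adjusted p = 0.131). MARS2, the methionyl enzyme, read 619, 1231 and 833 in the inputs and 463, 406 and 458 in the ORC1 IPs. Its ORC1 IPs were within 1.14-fold of each other, and its log2 fold change was -0.96 ± 0.36 (SE, limma adjusted p = 0.141). NARS2, the asparaginyl enzyme, read 491, 749 and 563 in the inputs and 358, 296 and 309 in the ORC1 IPs (limma adjusted p = 0.151). FARS2, the phenylalanyl enzyme, read 234, 503 and 469 in the inputs and 200, 174 and 247 in the ORC1 IPs (log2 fold change -0.89 ± 0.40, SE, limma adjusted p = 0.212). Input 1 alone brought the FARS2 groups into overlap. PARS2, the prolyl enzyme, read 351, 490 and 542 in the inputs and 212, 287 and 319 in the ORC1 IPs (limma adjusted p = 0.243).

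The highest mitochondrial fold changes were those of RARS2, WARS2 and AARS2. RARS2, the arginyl enzyme, read 667, 444 and 495 in the inputs and 742, 664 and 944 in the ORC1 IPs. ORC1 IP 2 fell just short of input 1, and the log2 fold change was 0.55 ± 0.34 (SE, limma adjusted p = 0.377). WARS2, the tryptophanyl enzyme, read 140, 184 and 119 in the inputs and 248, 236 and 121 in the ORC1 IPs (log2 fold change 0.39 ± 0.41, SE), with ORC1 IP 3 inside the input range. AARS2, the alanyl enzyme, read 564, 965 and 812 in the inputs and 1336, 603 and 1209 in the ORC1 IPs (log2 fold change 0.38 ± 0.40, SE). LARS2, the leucyl enzyme, was the only mitochondrial member with the pattern of the 12 cytosolic ones, at 1551, 2982 and 2148 in the inputs and 3169, 690 and 3824 in the ORC1 IPs. IARS2 read 4941, 5067 and 5340 in the inputs but 2467, 1951 and 8126 in the ORC1 IPs. The other 6 members, CARS2, EARS2, HARS2, SARS2, TARS2 and VARS2, had log2 fold changes from -0.77 (EARS2) to 0.14 (TARS2). Without ORC1 IP 2 the mitochondrial median was -0.10, with 7 of 16 positive, and the cytosolic median 0.73, with 19 of 20 positive. Beside these, all genes had a median of 0.02 with 50.7% positive. Well-expressed genes had a median of 0.32 with 63.0% positive.

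The shares of reads taken by the cytosolic and mitochondrial groups were compared next. Cytosolic members took 0.483%, 0.512% and 0.535% of the reads of the 3 inputs, in order, and 0.518%, 0.311% and 0.844% of those of the ORC1 IPs. Mitochondrial members took 0.0846%, 0.0963% and 0.103% in the inputs and 0.0509%, 0.0702% and 0.0847% in the ORC1 IPs. The ratio of cytosolic to mitochondrial reads averaged 5.41 ± 0.261 (SD, n = 3) over the inputs, with values of 5.71, 5.32 and 5.21, and 8.19 ± 3.26 (SD, n = 3) over the ORC1 IPs, with values of 10.2, 4.43 and 9.97. The ratio was thus above every input in ORC1 IPs 1 and 3 and below every input in ORC1 IP 2. Per replicate, the median log2 ratio of an ORC1 IP to the input of the same number was 0.76, -1.27 and 0.76 for cytosolic members and 0.06, -0.80 and -0.37 for mitochondrial members, beside -0.01, 0.01 and 0.05 for all genes. For well-expressed genes it was 0.38, -0.53 and 0.34.

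For 13 amino acids both a cytosolic and a mitochondrial enzyme with matching names were members, and their ratio within a library was compared. Such a ratio is not per length, but the lengths are the same in every library. The change in log2 ratio from input to ORC1 IP was positive for 9 of 13 pairs, with a median of 0.46, and for 11 of 13 without ORC1 IP 2, with a median of 1.03. NARS over NARS2 was 10.9, 4.85 and 5.91 in the inputs and 36.9, 15.9 and 36.9 in the ORC1 IPs, the largest change of the 13 pairs (2.04 on the log2 scale). All 3 ORC1 IPs lay above all inputs for this pair. The same held for LARS over LARS2, at 1.97, 1.24 and 1.46 in the inputs and 2.82, 3.24 and 3.45 in the ORC1 IPs, and for IARS over IARS2, at 2.07, 2.58 and 2.07 against 5.92, 2.68 and 3.54. The arginyl pair went the other way, with RARS over RARS2 at 4.59, 7.52 and 5.44 in the inputs and 3.90, 2.13 and 4.10 in the ORC1 IPs. The seryl pair followed the split of the libraries, with SARS over SARS2 at 35.1, 26.5 and 28.1 in the inputs and 78.9, 8.61 and 65.9 in the ORC1 IPs. Ratios in both ORC1 IP 1 and ORC1 IP 3 exceeded all inputs in 9 pairs. In a two-sided exact permutation test of each of the 13 pairs, the 4 pairs without overlap had p = 0.1, the smallest that 3 libraries against 3 allow, so the design could not reach the threshold. The share of other gene pairs with such a separation was not computed, and among single genes all ORC1 IPs were above all inputs for 12.7% and below for 13.5%.

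**Figure D3:**
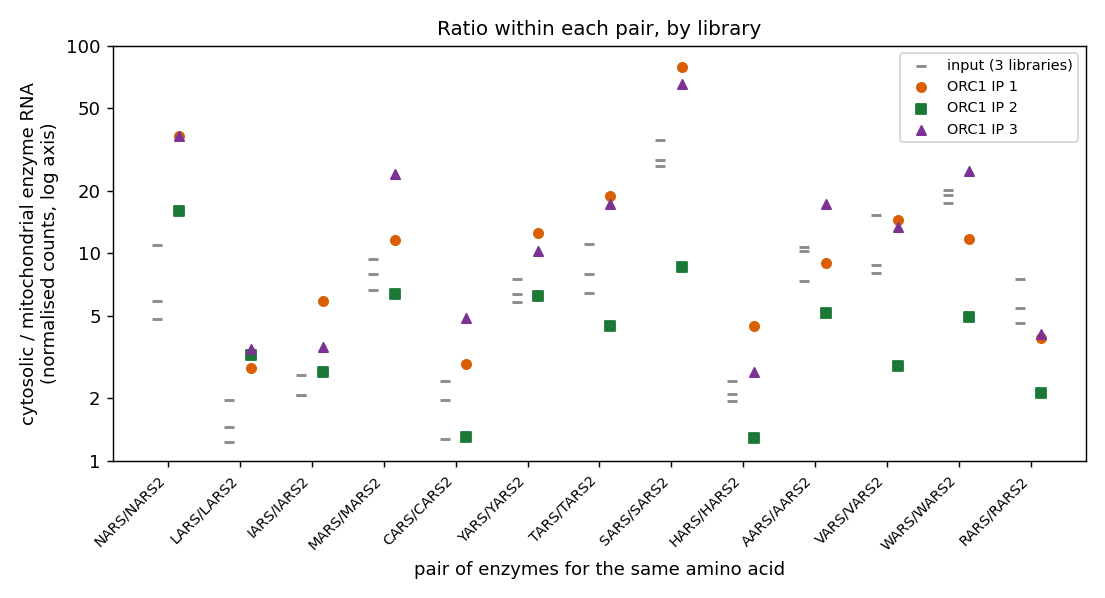
Ratio of the normalised count of each cytosolic enzyme to its mitochondrial counterpart, on a log axis, for 13 amino acids in 3 inputs and 3 ORC1 IPs. NARS over NARS2 lies above the inputs in each ORC1 IP, whereas SARS over SARS2 is above them in ORC1 IPs 1 and 3 and at 8.61 in ORC1 IP 2.

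Sequence features not used in choosing the members were then set beside their levels. Cytosolic and mitochondrial transcripts had similar lengths, with medians of 2704.5 and 2619.5 bases, beside 2751.5 for all genes. GAAGAA matches, counted on the sense strand of the transcript without overlaps between matches, had a median of 1.48 per kb in cytosolic members, 0.55 in mitochondrial members and 0.66 in all genes. At least 1 match was present in 19 of 20 and 14 of 16 members and in 77.1% of all genes. Across the 36 members, Spearman's rho between this density and the log2 ratio to the input mean was 0.627 in ORC1 IP 1, -0.176 in ORC1 IP 2 and 0.532 in ORC1 IP 3. Across 16062 genes it was 0.331, 0.116 and 0.307. Within the 20 cytosolic members it was 0.648, 0.014 and 0.174, and within the 16 mitochondrial members 0.084, 0.193 and 0.081, each weaker in ORC1 IP 3 than across both compartments together. For transcript length, rho in ORC1 IPs 1, 2 and 3 was 0.197, 0.095 and 0.460 across the 36 members. It was 0.220, 0.510 and 0.662 within cytosolic members, 0.259, -0.229 and 0.400 within mitochondrial members, and 0.254, 0.147 and 0.453 across 16062 genes. For GC content, rho was -0.293, -0.202 and -0.321 across the 36 members. It was -0.356, -0.726 and -0.323 within cytosolic members, 0.097, 0.191 and -0.029 within mitochondrial members, and -0.053, -0.206 and -0.200 across 16062 genes. The points of 1 library share its depth and scaling, and genes are not independent replicates. Input level per kb had a rho of 0.274, -0.664 and 0.426 with the ratios in ORC1 IPs 1, 2 and 3 across the 36 members. More abundant members thus tended to be lower in ORC1 IP 2. Within cytosolic members this rho was -0.397, -0.776 and -0.398, and within mitochondrial members -0.232, -0.641 and 0.106. The positive values in ORC1 IPs 1 and 3 across both compartments were thus not seen within the cytosolic members. Across 16062 genes this relation was -0.111, -0.467 and -0.160. Input level is also the denominator of these ratios.

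**Figure D4:**
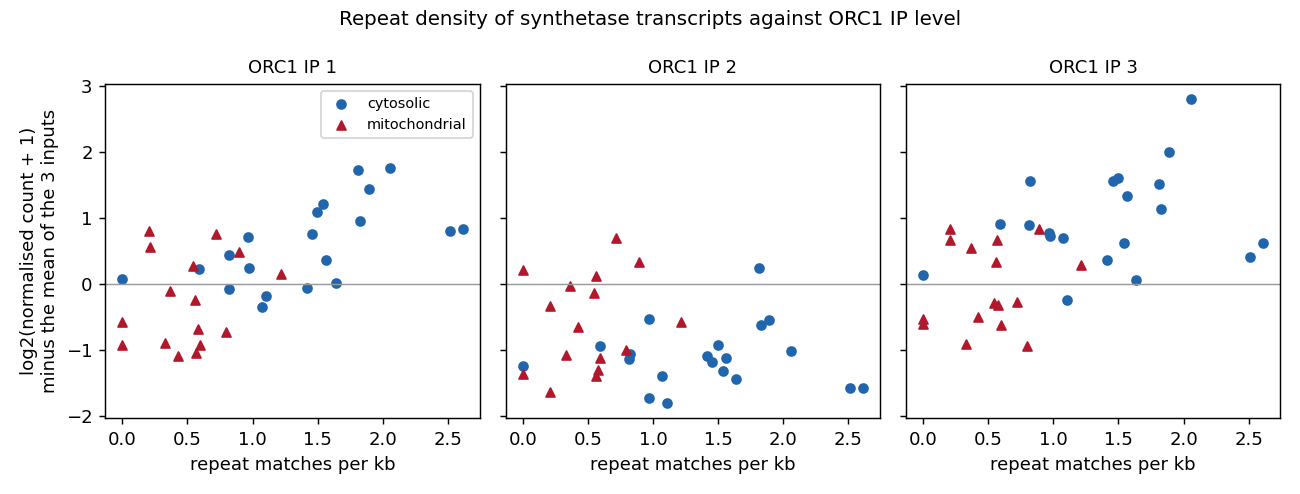
Log2 ratio of each ORC1 IP to the input mean against the density of GAAGAA matches per kb of transcript, 1 panel for each ORC1 IP and 1 point for each of 36 members, cytosolic and mitochondrial marked apart. Across both compartments, denser members tend to have higher ratios in ORC1 IPs 1 and 3 (rho 0.627 and 0.532) but not in ORC1 IP 2 (-0.176). In ORC1 IPs 1 and 3, rho is 0.648 and 0.174 within cytosolic members and 0.084 and 0.081 within mitochondrial members.

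Overlapping genes limit some of these values, since the sources used here do not say whether counting used the strand. Most members overlap some other gene on GRCh38, counted over whole gene extents with introns. On the opposite strand, YARS2 shares 18161 bases with DNM1L, MARS 13370 bases with ARHGAP9 and 982 with DDIT3, YARS 1265 bases with S100PBP and KARS 871 bases with TERF2IP. AARS2 lies over its whole length of 14617 bases within a coding gene of the opposite strand. MARS2 (3027 bases) and VARS2 (12255 bases) lie wholly within noncoding genes of their own strand, and SARS2 shares 15360 bases with a coding gene of its own strand. HARS and HARS2 start head to head and share 108 bases. The other overlaps include antisense RNAs of LARS2, FARS2 and CARS. Whether the hg19 gene models used for counting hold the same overlaps was not checked. Counts of these members may be uncertain to that extent.

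Genes that work with the synthetases were examined next. Of 18 genes listed as charging partners (scaffold proteins, editing and amidation factors, and related enzymes outside the 36), 15 were tested. Their median log2 fold change was -0.29, and 0 were higher, beside 2.28% of all genes, and 0 lower, beside 1.42%. Without ORC1 IP 2, AIMP1 and TARSL2 were higher and GATC and DTD2 lower, 2 of 15 each way beside 11.9% and 6.38% of all genes, named here after their values were seen. The scaffold genes of the multisynthetase complex held both ends of this list. AIMP1 was the highest, at 1030, 572 and 507 in the inputs and 4539, 880 and 1559 in the ORC1 IPs (log2 fold change 1.46 ± 0.54, SE, limma adjusted p = 0.138, and 0.00832 without ORC1 IP 2). AIMP2 was the lowest, at 598, 816 and 859 in the inputs and 385, 219 and 368 in the ORC1 IPs (log2 fold change -1.25 ± 0.36, SE, limma adjusted p = 0.0723). AIMP2 thus had every ORC1 IP below every input. EEF1E1, the third scaffold gene, had a log2 fold change of -0.04.

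Among 54 genes of tRNA maturation, 52 were tested, with a median log2 fold change of -0.05. Of these, 0 were higher, beside 2.28% of all genes, and 1 was lower, beside 1.42%. The call was TSEN34, a subunit of the tRNA splicing endonuclease. It read 2136, 2667 and 3129 in the inputs and 866, 808 and 1147 in the ORC1 IPs, so that the groups were well apart. The log2 fold change of TSEN34 was past the threshold. It fell by 1.49 on the log2 scale (SE 0.36, limma adjusted p = 0.0434). On recovered reads, edgeR (adjusted p = 0.0409) and DESeq2 (adjusted p = 0.00227) also called TSEN34 lower, where 1.31% and 4.35% of all genes were. The limma call was lost with the replicate block (adjusted p = 0.0690). It was also lost on leaving out any library other than ORC1 IP 2 (limma adjusted p from 0.0532 without input 1 to 0.285 without input 3). TRMT10A, a tRNA guanine methyltransferase, was the highest of the list, at 162, 80.4 and 103 in the inputs and 827, 167 and 471 in the ORC1 IPs. Its log2 fold change was 1.86 ± 0.54 (SE), with a limma adjusted p of 0.0723, and of 0.0324 with the replicate block. Without ORC1 IP 2, TRMT6, TRMT10A, TRMT13 and PUS7 passed the test as higher and TSEN34 as lower. That is 4 and 1 of 52, beside 11.9% and 6.38% of all genes.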

How the data were processed

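The deposited values were made by the authors by dividing the counts of each library by its size factor, which gives a normalised signal. Per the methods of the study, reads were trimmed (Trimmomatic), aligned (STAR) to hg19 and counted on Ensembl genes (featureCounts). Its comparison with input used DESeq2. Whole reads were recovered for 100% of values (tolerance 0.001). The deposited table also holds the authors' log2 fold changes, standard errors, test scores and p-values with adjusted p-values, which were not used.

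log2(normalised count + 1) of 16513 genes with a mean of at least 10 was tested with limma 3.58.1 (intensity trend, no block, Benjamini-Hochberg over all genes tested, adjusted p under 0.05) in R 4.3.3, tested on simulated data. This scale understates changes of low genes. edgeR 4.0.16 and DESeq2 1.42.0 on recovered reads, other pseudocounts, filters and scalings, a replicate block, a GC and length correction and each library left out were alternatives. The study states that the ORC1 RIP was sequenced as replicate experiments, while the labels name no separate cultures. The p-values thus measure the spread between these libraries, which may be technical.

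The labels give an input and an ORC1 IP of the same RIP experiment the same number. Deviations from group means of same-numbered libraries correlated at -0.322, -0.240 and 0.215 over all genes, and input 1 went best with ORC1 IP 2 and input 2 with ORC1 IP 1. Values per replicate rest on these numbers.

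Gene models and transcripts are those of GENCODE v44 on GRCh38, joined by Ensembl identifier for 16062 genes and all 36 members. Values in every library are given for the 3 highest and 3 lowest members of each compartment, the 3 with the widest range over replicates of both signs, members past the threshold, and others chosen after their values were seen (FARSB, TARS, CARS, AARS, NARS2, PARS2, LARS2, IARS2). The rule for members uses symbols alone, but the members and lists were chosen with earlier results of these data known. The repeat stretches of CARS are not reported here.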

Additional observations from a re-analysis of the deposited data

How the results depend on the processing

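The replicate block changed no call on a synthetase, with 0 members higher and 0 lower in limma, as also in edgeR and DESeq2 with the block, and in limma it changed among the other genes given with values only the calls of TSEN34 and TRMT10A. In limma, the log2 fold change of TSEN34 also missed the threshold with total count scaling (adjusted p = 0.0555), without the intensity trend (0.0756) and with the GC and length correction (0.0521). DESeq2 called AIMP1 and TRMT10A higher and AIMP2 and TSEN34 lower, where 7.67% and 4.35% of all genes were. Among the other listed genes and markers, it called TRMT6, TRMT11, TRMT13 and COL1A1 higher and YRDC lower. Of all these, edgeR called TRMT10A higher and TSEN34 lower. Of the alternatives run, 2 gave a member an adjusted p under 0.05: DESeq2 called 1 higher (EPRS, where 7.67% of all genes were higher), and leaving out ORC1 IP replicate 2 called 5, so that leaving out each library in turn gave 0 to 5 higher and 0 to 0 lower. edgeR called 0 members (2.57% of all genes higher, 1.31% lower). At the study threshold, 1 member (NARS) was higher with TMM, with upper quartile scaling, without the intensity trend and with DESeq2 and a replicate block. At that threshold 3 were higher (LARS, NARS and EPRS) with edgeR and DESeq2, and 0 to 6 on leaving out each library, 6 without ORC1 IP 2. Lower at that threshold were 4 with total count scaling (NARS2, YARS2, FARS2 and MARS2), 2 with upper quartile scaling (YARS2 and MARS2), 1 (MARS2) with edgeR, DESeq2, the GC and length correction, and that correction with a replicate block, and 0 to 4 on leaving out each library, 4 without input 1 (the same 4 as with total count scaling) and 3 without ORC1 IP 3 (IARS2, YARS2 and FARS2). Except without ORC1 IP 2, shares of all genes past that threshold are not given for these settings, so the counts lack a background. With total count scaling the median log2 fold change of all genes was itself -0.19. Leaving out each library moved the cytosolic median from -0.36 (without ORC1 IP 3) to 0.73 and the mitochondrial median from -0.47 (without input 1) to -0.10. The cause of these differences was not tested. No control antibody library was analysed here, and 3 libraries a group limit the precision.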
